A study of Mus musculus with 6 samples.

Results

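The mitochondrial ribosomal protein genes are the nuclear genes for the proteins of the ribosome inside mitochondria. They were taken as every protein-coding mouse gene whose symbol starts with Mrpl or Mrps followed by a digit, which gave 78 of the 12353 genes measured, 49 for the large subunit (Mrpl) and 29 for the small subunit (Mrps). All 78 annotated genes of this kind were in the table, so none was lost to the authors' limit on low values. RNA sequencing was carried out on gastrocnemius, a calf muscle, from 3 wild-type (Nogo+/+) and 3 Nogo knock-out (Nogo-/-) mice, with 1 library a mouse. Nogo is the protein of *Rtn4*, a membrane protein of the endoplasmic reticulum, and the knock-out is described without a promoter or Cre that would limit it to a tissue, so a difference need not arise in the muscle fibre. No treatment is named for the sequenced mice, and the mice of the study were kept on a light-dark cycle. The methods give strain, age and sex for the mice of an injury experiment with the same genotypes, but the sources used here do not tie them to the sequenced mice. The comparison asked how the loss of Nogo bears on the RNA level of each of these genes.

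Mitochondria keep a small genome that codes for core subunits of the respiratory chain and for the RNAs of their own ribosome. Every protein of that ribosome is coded in the nucleus, made in the cytosol and imported, and skeletal muscle, with its high demand for ATP, depends on this supply. The ribosome descends from a bacterial one, so that some of its proteins have bacterial counterparts while others are found only in mitochondria. A symbol does not always give the place of a protein: the products of *Mrps30* and *Mrps18a* sit in the large subunit, and that of *Mrps36* is now regarded as a part of the α-ketoglutarate dehydrogenase complex.

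*Rtn4* (chromosome 11, 29692947 to 29744331, GRCm38) matched the labels, with 413.9, 428.9 and 424.9 FPKM in the Nogo+/+ libraries and 0.4233, 0.3115 and 0.3682 FPKM in the Nogo-/- libraries. FPKM, fragments scaled by transcript length and by the mapped fragments of the library, is a level per length and can be compared between genes. The depth recovered from the table was between 13485000 and 14448000 fragments a library. Markers of muscle fibres summed to between 28700 and 30700 FPKM in the 6 libraries. Sample 6, a Nogo-/- library, stood apart on the first principal component (25.9 against 7.22 and 6.11 in the other Nogo-/- libraries and -14.2 to -12.5 in Nogo+/+) and held 175 FPKM of 6 skin keratins against 2.93 to 11.8 elsewhere. The 5 fat cell markers summed to 270 to 295 FPKM in Nogo+/+ and to 478, 356 and 297 FPKM in Nogo-/-, and all 4 endothelial markers were lower in Nogo-/- (82.3 to 92.5 against 55.3 to 67.8 FPKM in sum). Each of these 4 passed an adjusted p of 0.05 in limma, from 0.00192 for *Kdr* to 0.0342 for *Tek*. No fat cell marker or skin keratin passed. At an unadjusted p under 0.05 in limma were 4 of the 5 fat cell markers, all higher in Nogo-/-, and 0 of the 6 keratins, against 20.5% of all genes. *Cidec* came closest, with means of 8.06 FPKM in Nogo+/+ and 21.2 FPKM in Nogo-/- (limma adjusted p = 0.0525). *Fabp4*, at 252 and 308 FPKM in the means, made up most of the fat cell sum. The part of these differences in the values below was not tested, and in whole muscle fewer cells of a type cannot be told apart from less RNA per cell.

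None of the 78 mitochondrial ribosomal protein genes changed between Nogo+/+ and Nogo-/- muscle at an adjusted p under 0.05 (limma, Benjamini-Hochberg over all genes), where 4.64% of all genes did (1.89% higher and 2.75% lower in Nogo-/-). At an unadjusted p under 0.05 there were 6 members, or 7.69%, against 20.5% of all genes. *Mrpl52*, *Mrps21*, *Mrpl55*, *Mrpl41* and *Mrps30* were the 5 with higher values in Nogo-/- (6.41%, against 8.91% of all genes), and *Mrpl39* had lower values (1.28%, against 11.6%). The fold changes were small and were known with fair precision. The median log2 fold change (Nogo-/- minus Nogo+/+) of the 78 genes was 0.042, a fold of 1.03, and the 95% interval reached a median of 0.132 to either side. The median over all genes was -0.007.

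The intervals limit how large a change could have been missed. For 68 of the 78 genes (87.2%) the 95% interval lay inside a 1.2-fold change either way, against 35.5% of all genes. Inside a 1.3-fold change lay 74 (94.9%, against 64.7%), and inside a 1.5-fold change lay all 78, against 87.4%. The 4 genes whose intervals passed 1.3-fold were *Mrps25* (fold 0.958 to 1.421), *Mrps35* (0.876 to 1.369), *Mrpl39* (0.757 to 0.940) and *Mrpl19* (0.760 to 1.101). The first 2 of them code for small subunit proteins found only in mitochondria. The spread within groups was low, with a median SD of 0.067 on the log2 scale, against 0.086 for the 7134 other genes in the same range of FPKM. That range runs from 4.69 to 279 FPKM, and the other genes were not matched on level within it. What level adds to the lower spread and the narrower intervals was not tested. *Mrps35* had the widest spread of all the members, an SD of 0.23.

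**Figure D1:**
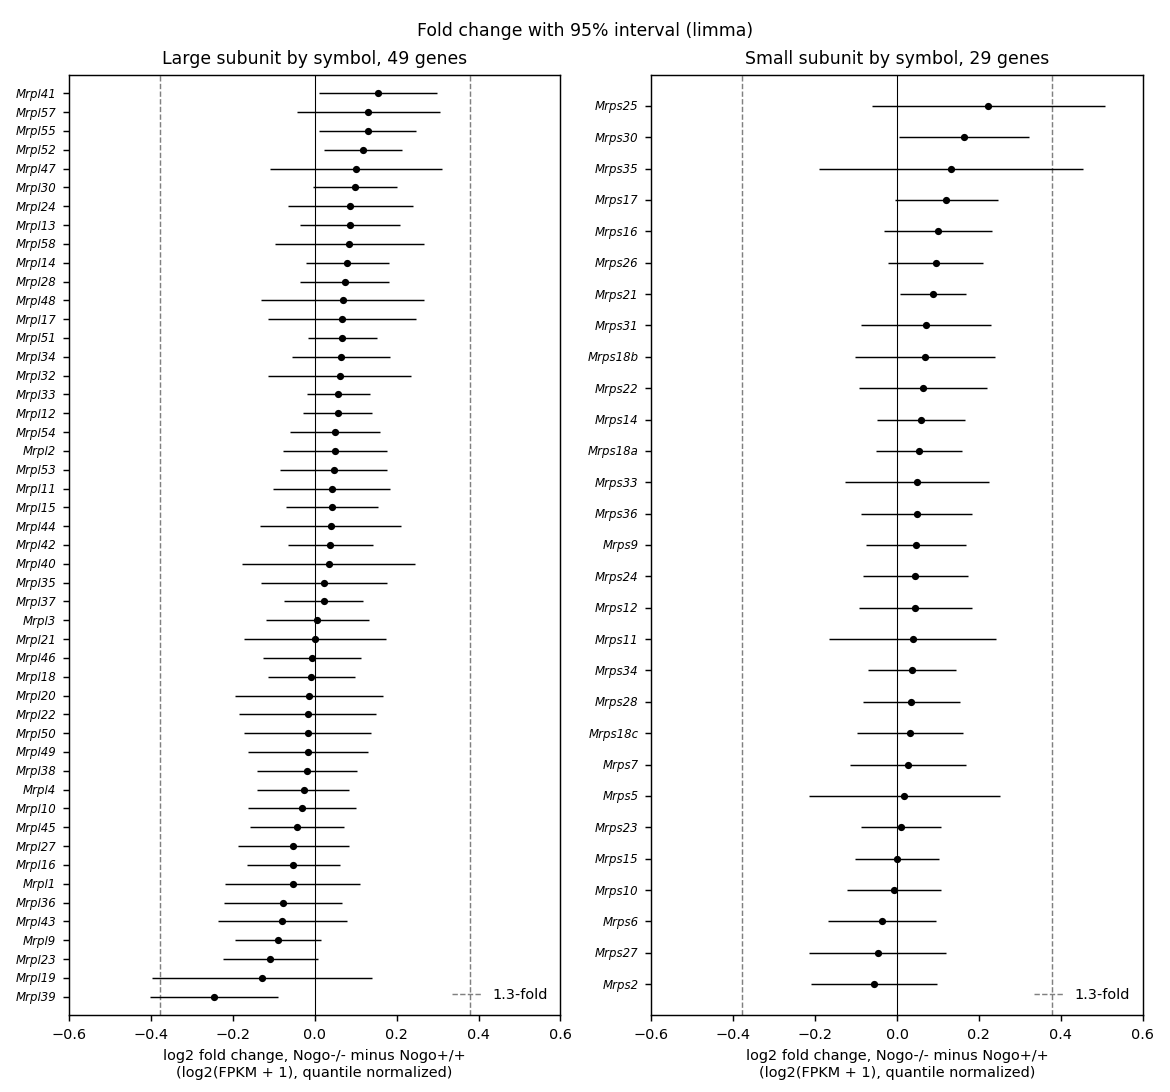
Log2 fold change (Nogo-/- minus Nogo+/+, on log2(FPKM + 1) after quantile normalization) of each mitochondrial ribosomal protein gene, with 49 large subunit genes on the left and 29 small subunit genes on the right; points are estimates, bars are 95% intervals from limma and dashed lines mark a 1.3-fold change. The bars of 74 genes stay between the dashed lines, and *Mrpl39* lies lowest at -0.245.

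The genes stood among the more abundant transcripts of the muscle and spanned a wide range. Mean FPKM over the 6 libraries ran from 4.69 for *Mrpl19* to 279 for *Mrpl42*, a ratio of 59.5, with a median of 39.4. All but 1 of the 78 lay above the median gene of the table (6.87 FPKM). The 5 most abundant members held 21.9% of the members' summed FPKM. *Mrpl42*, a mitochondria-specific large subunit protein, had 271.3, 256.2 and 281.1 FPKM in Nogo+/+ and 311.3, 270.1 and 285.2 FPKM in Nogo-/-. Its groups overlapped.

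Below *Mrpl42* came *Mrpl51* (154 FPKM on average), *Mrpl33* (136), *Mrpl30* (126), *Mrps21* (124) and *Mrpl12* (122). Each of these 5 had lower FPKM in every Nogo+/+ library than in any Nogo-/- library, by 1.067 to 1.099 times in the means. Of all genes 15.9% were separated in this direction, and none of the 5 was called (limma adjusted p 0.209 to 0.444). *Mrpl30*, *Mrps21* and *Mrpl12* lay so close together that their ranges over the 6 libraries overlapped. At the low end *Mrps30* averaged 9.82 FPKM, *Mrpl39* 10.5, *Mrpl1* 10.9, *Mrps2* 11.5 and *Mrps22* 12.9, again with neighbours in the order that overlapped. *Mrpl19*, which has a bacterial counterpart, stood below all of them in each library, at 4.604, 5.712 and 4.347 FPKM in Nogo+/+ and 3.960, 4.902 and 4.614 FPKM in Nogo-/-.

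Small subunit genes had a lower median level (30.6 FPKM) than large subunit genes (41.0 FPKM). After *Mrps21*, the highest of the genes with an Mrps symbol were *Mrps28* (80.3 FPKM) and *Mrps18a* (72.7 FPKM). The 10 small subunit proteins found only in mitochondria had a median of 20.5 FPKM, against 41.7 FPKM for the 16 small subunit proteins with a bacterial counterpart. In the large subunit the same split gave 35.7 and 43.3 FPKM, over 21 and 30 genes. The order of the levels was kept between the genotypes: across the 78 genes, which share libraries and are not independent, the mean log2 levels of the groups had a Pearson correlation of 0.9975, and no gene moved by more than 7 ranks.

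**Figure D2:**
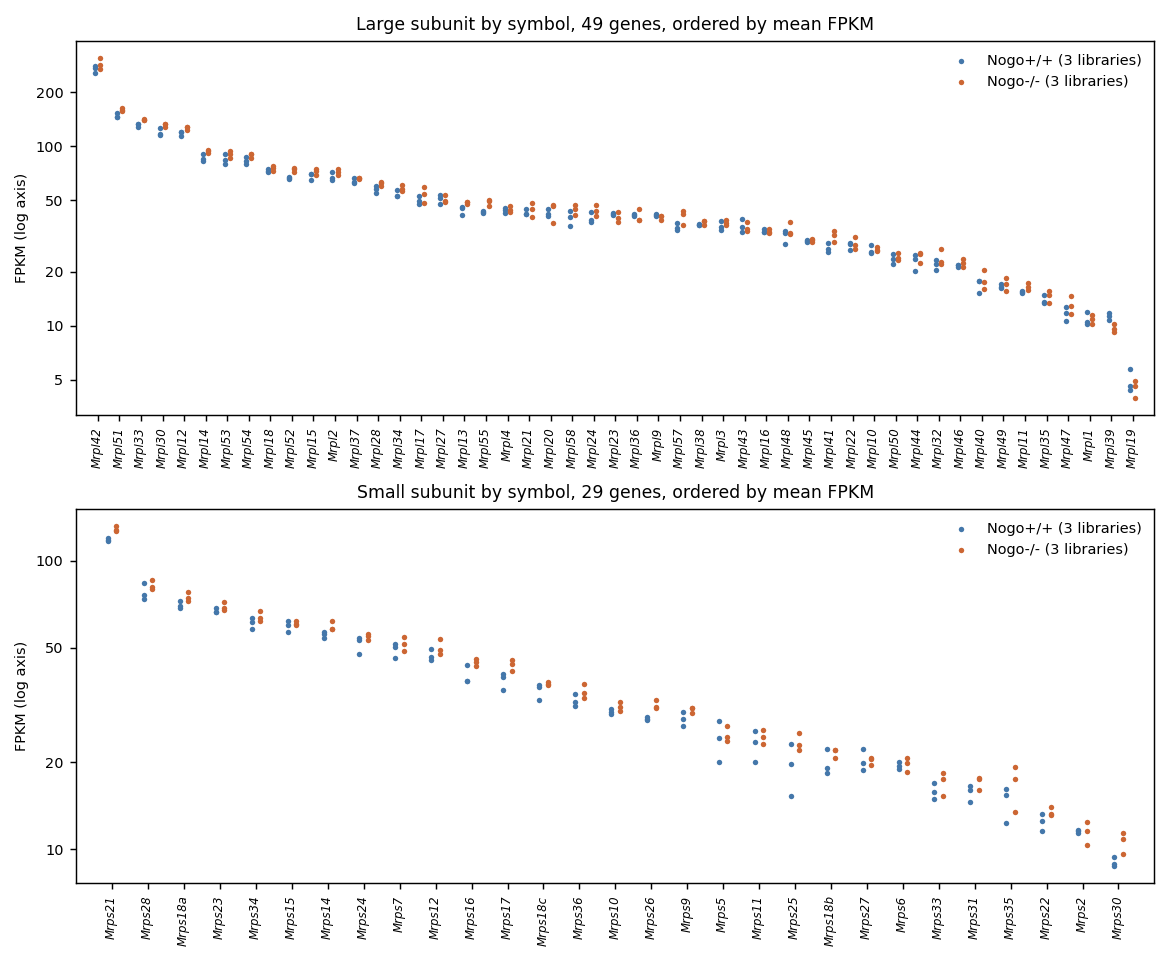
FPKM (log axis) of each mitochondrial ribosomal protein gene in every library, ordered by mean FPKM, with large subunit genes above and small subunit genes below; each point is a library, blue for Nogo+/+ and orange for Nogo-/-. Levels run from 4.69 FPKM (*Mrpl19*) to 279 FPKM (*Mrpl42*), and the 2 colours lie close together at nearly every gene.

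Upstream sequence was examined because many mitochondrial ribosomal protein genes are known to carry sites for nuclear respiratory factor 1 (NRF1) and for ETS factors such as GABPA, which drive nuclear genes for mitochondria. Promoters were the 250 bases before to 50 after the RefSeq start (GRCm38.p6), found for 69 members and 9106 coding genes of the table, and were searched on both strands. The NRF1 motif (GCGCA, any base, then GCGC) was in 13 member promoters (18.8%, against 11.0% of all promoters), and the ETS letters CCGGAAG in 24 (34.8%, against 18.7%). The YY1 letters AANATGGCG were in 11 (15.9%, against 5.6%), and the letters TCAAGGTCA of oestrogen-related receptors were in 0 (against 0.22%). At least 1 of the NRF1 and ETS motifs was in 33 promoters (47.8%, against 27.4%), and both were in 4. Member promoters had a median G+C of 58.3%, against 61.0%.

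Stretches around a motif are shown for 8 genes whose levels are described here, each read 5′ to 3′ on the strand of the gene, from RefSeq, with the motif in capitals on whichever strand it matched. The first 4 hold the NRF1 letters and belong to 3 of the most abundant members and to *Mrpl39*, the member with the lowest fold change.
Mrpl12, chr11:120484536-120484585, plus strand, 101 to 52 bases before the start: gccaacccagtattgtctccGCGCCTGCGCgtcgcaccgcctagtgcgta
Mrpl30, chr1:37890384-37890413, plus strand, 93 to 64 bases before the start: tgacgccgctGCGCCTGCGCtgtcttctat
Mrps21, chr3:95871586-95871615, minus strand, 101 to 72 bases before the start: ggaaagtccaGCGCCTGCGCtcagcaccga
Mrpl39, chr16:84735350-84735379, minus strand, 135 to 106 bases before the start: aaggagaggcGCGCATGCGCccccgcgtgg
The other 4 hold the ETS letters, and belong to an abundant member, to *Mrpl52*, to *Mrps18a* and to *Mrps22*, among the least abundant.
Mrpl51, chr6:125192099-125192127, plus strand, 101 to 73 bases before the start: caggggctaaaCCGGAAGtatttgactgg
Mrpl52, chr14:54426842-54426888, plus strand, 67 to 21 bases before the start: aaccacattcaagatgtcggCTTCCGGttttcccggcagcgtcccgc
Mrps18a, chr17:46110958-46110985, plus strand, 46 to 19 bases before the start: cggctgcgcacacccctgctCCGGAAGc
Mrps22, chr9:98601680-98601710, minus strand, 31 to 1 bases before the start: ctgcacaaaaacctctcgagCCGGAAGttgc
The stretches of *Mrpl30*, *Mrps21*, *Mrpl39* and *Mrpl51* overlap an exon of a GENCODE transcript, and the other 4 lie outside annotated exons.

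The same letters stood before genes with high and with low levels, and before genes with positive and negative fold changes. The median log2 fold change was 0.061 in the 13 members with the NRF1 letters and 0.038 in those without, 0.051 and 0.038 for the ETS letters, and 0.038 and 0.046 for the YY1 letters. No test was made of these medians, and a match of letters does not show that a factor binds. The genes of 3 of the factors, named here after their values were seen, did not pass an adjusted p of 0.05. For *Nrf1* the log2 fold change was 0.096 (SE 0.083, limma adjusted p = 0.576), *Gabpa* -0.107 (SE 0.090, adjusted p = 0.567) and *Yy1* -0.263 (SE 0.068, adjusted p = 0.0718). Of the oestrogen-related receptor genes, *Esrrb*, described below, passed (-0.559, limma adjusted p = 0.026). *Esrra* (adjusted p = 0.808) and *Esrrg* (adjusted p = 0.456) did not.

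The large and the small subunit were then compared by their summaries. Of the 49 large subunit genes 29 had a fold change above 0, with a median of 0.038, and of the 29 small subunit genes 24 did, with a median of 0.046. Together 53 of 78 (67.9%) were above 0, against 47.9% of all genes. When *Mrps30* and *Mrps18a* were counted with the large subunit and *Mrps36* with neither, the medians were 0.039 (51 genes) and 0.045 (26 genes). Small subunit proteins found only in mitochondria had the highest median of the 4 classes, 0.065, with 9 of 10 above 0. Those of the small subunit with a bacterial counterpart had 0.036, and the large subunit classes 0.039 (mitochondria-specific) and 0.032 (bacterial counterpart). No test was made of the differences between these medians.

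**Figure D3:**
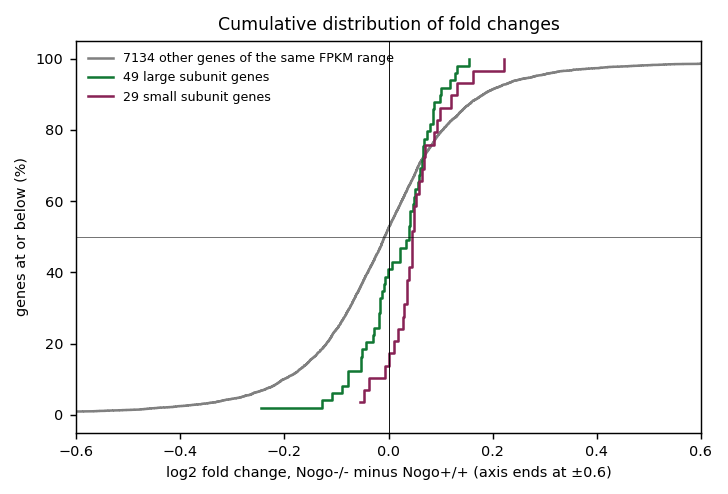
Cumulative share (percent) of genes at or below each log2 fold change (Nogo-/- minus Nogo+/+) for 49 large subunit genes (green), 29 small subunit genes (purple) and 7134 other genes in the same range of FPKM (grey). The member curves are steeper than the grey curve and cross 50% at 0.038 and 0.046, against -0.008 for the other genes, which were not matched on level within the range.

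*Mrpl39*, which codes for a mitochondria-specific large subunit protein related to threonyl-tRNA synthetase, had the smallest p. It had 10.73, 11.25 and 11.80 FPKM in Nogo+/+ and 9.228, 10.23 and 9.567 FPKM in Nogo-/-. It was the only member with every Nogo-/- library below every Nogo+/+ library. Its log2 fold change was -0.245 (SE 0.068), with a p of 0.0066 in limma and an adjusted p of 0.0891.

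*Mrpl52*, another mitochondria-specific large subunit protein, came next, with 65.25, 66.74 and 67.00 FPKM in Nogo+/+ and 74.45, 75.63 and 71.86 FPKM in Nogo-/-. The groups did not overlap, and the log2 fold change was 0.117 (SE 0.041, limma adjusted p = 0.161). *Mrps21*, the counterpart of a small bacterial ribosomal protein, had 117.1, 117.8 and 120.2 FPKM in Nogo+/+ and 132.5, 126.9 and 128.5 FPKM in Nogo-/-. Its log2 fold change of 0.088 had an SE of 0.035 and a limma adjusted p of 0.209, again without overlap.

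*Mrpl55* had 42.61, 43.10 and 43.39 FPKM in Nogo+/+ and 49.48, 46.63 and 49.92 FPKM in Nogo-/- (log2 fold change 0.129, SE 0.052, limma adjusted p = 0.210). *Mrpl41* had 28.83, 25.64 and 26.89 FPKM in Nogo+/+ and 31.82, 33.67 and 29.13 FPKM in Nogo-/- (0.155, SE 0.063, adjusted p = 0.213). Both code for large subunit proteins, and neither had groups that overlapped, although for *Mrpl41* the nearest libraries were only 28.83 and 29.13 FPKM. *Mrps30*, also a large subunit protein despite its symbol, had 8.754, 8.903 and 9.392 FPKM in Nogo+/+ and 10.88, 11.38 and 9.600 FPKM in Nogo-/- (0.163, SE 0.070, adjusted p = 0.234). By structure, 5 of these 6 genes code for large subunit proteins, a class that makes up 65.4% of the members. They were 9.80% of the 51 large subunit genes, against 20.5% of all genes at an unadjusted p under 0.05.

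**Figure D4:**
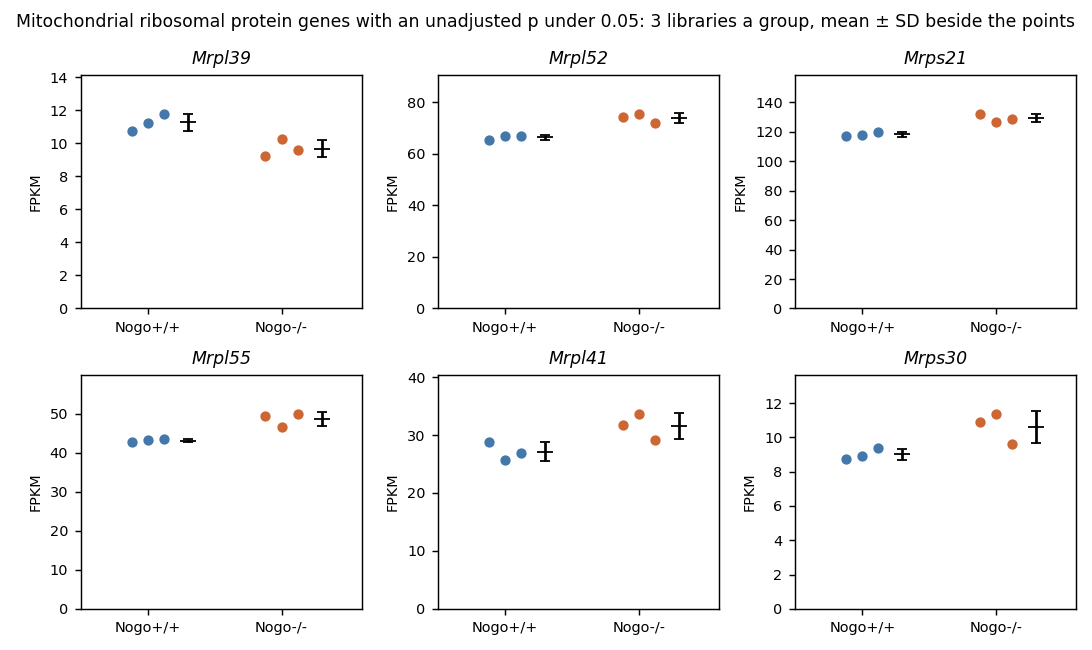
FPKM in each library of the 6 mitochondrial ribosomal protein genes with an unadjusted p under 0.05 in limma; coloured points are libraries, and the black mark and bar beside them are the mean and SD of the 3 libraries. No gene has overlapping groups, *Mrpl39* is lower in Nogo-/-, the other 5 are higher, and the ratios of the means run from 0.859 to 1.178.

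In the deposited FPKM, 18 members had groups that did not overlap (23.1%, against 25.9% of all genes). Of these 17 were higher in Nogo-/- (21.8%, against 15.9%), with ratios of means from 1.058 to 1.178, and 1 was lower (1.28%, against 10.0%). They were 11 genes of the large subunit and 6 of the small subunit by symbol on the higher side, and *Mrpl39* on the lower. *Mrps17*, with a bacterial counterpart, had 39.56, 35.73 and 40.44 FPKM in Nogo+/+ and 43.87, 45.28 and 41.35 FPKM in Nogo-/- (log2 fold change 0.120, SE 0.055, limma adjusted p = 0.269). *Mrps26*, mitochondria-specific, had 28.38, 27.97 and 28.71 FPKM in Nogo+/+ and 32.84, 30.93 and 31.13 FPKM in Nogo-/- (0.094, SE 0.051, adjusted p = 0.350). The largest fold change upward was that of *Mrps25*, and it rested on a wide spread: 19.72, 15.32 and 23.13 FPKM in Nogo+/+ against 25.22, 22.01 and 23.03 FPKM in Nogo-/-. Its groups overlapped, and its log2 fold change of 0.222 (SE 0.124) ranged from 0.081 to 0.350 over the other settings tried, with a limma adjusted p of 0.365 here.

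Members with a defined task in the ribosome gave like values. *Mrpl12*, *Mrpl10* and *Mrpl11* code for proteins of the stalk and its base, where translation factors dock. *Mrpl12* had 119.8, 114.1 and 120.5 FPKM in Nogo+/+ and 127.2, 123.6 and 127.5 FPKM in Nogo-/- (log2 fold change 0.056, SE 0.037, limma adjusted p = 0.444). *Mrpl10* and *Mrpl11*, at 26.5 and 15.9 FPKM on average, had log2 fold changes of -0.030 and 0.042. *Mrps12*, at the decoding centre, had 49.46, 45.39 and 46.34 FPKM in Nogo+/+ and 53.70, 47.47 and 48.97 FPKM in Nogo-/-, with overlap (0.045, SE 0.060). *Mrpl58*, a peptidyl-tRNA hydrolase built into the large subunit that frees stalled ribosomes, had 43.66, 35.96 and 40.26 FPKM in Nogo+/+ and 44.43, 41.12 and 46.83 FPKM in Nogo-/- (0.085, SE 0.080, adjusted p = 0.610). Every interval of these 5 lay inside a 1.3-fold change.

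Summed over the 78 genes, the deposited FPKM was 3675.5, 3512.8 and 3677.5 in Nogo+/+ and 3925.4, 3823.7 and 3795.2 in Nogo-/-. The means were 3622 ± 94.5 and 3848 ± 68.4 (SD, n = 3), a ratio of 1.062, where the sum over all genes had a ratio of 1.016. The ratio was 1.060 for the large and 1.068 for the small subunit. The members held 0.908%, 0.876% and 0.911% of all FPKM in Nogo+/+ and 0.945%, 0.944% and 0.928% in Nogo-/-, without overlap.

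Quantile normalization, which gives all libraries the same distribution of values, lowered the median fold change of the members and that of all genes by similar amounts. Before it 68 members had a positive fold change, with a median of 0.086 where the median of all genes was 0.034. After it 53 did, with 0.042 against -0.007. The members' median stood 0.053 above that of all genes before normalization and 0.049 above it after. The members' median deviation from their own means was then -0.038 in sample 2 and 0.037 in sample 4, and between -0.003 and 0.008 in the other 4 libraries. In these normalized values sample 2, a Nogo+/+ library, was the lowest library for 23 members. Sample 4, a Nogo-/- library, was the highest for 22. With sample 2 left out the members' median fell to 0.022, and with sample 4 left out to 0.026. With sample 6 left out it was 0.037, and no member was called in limma. At an unadjusted p under 0.05 there were then 4 members (5.13%, against 19.2% of all genes).

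**Figure D5:**
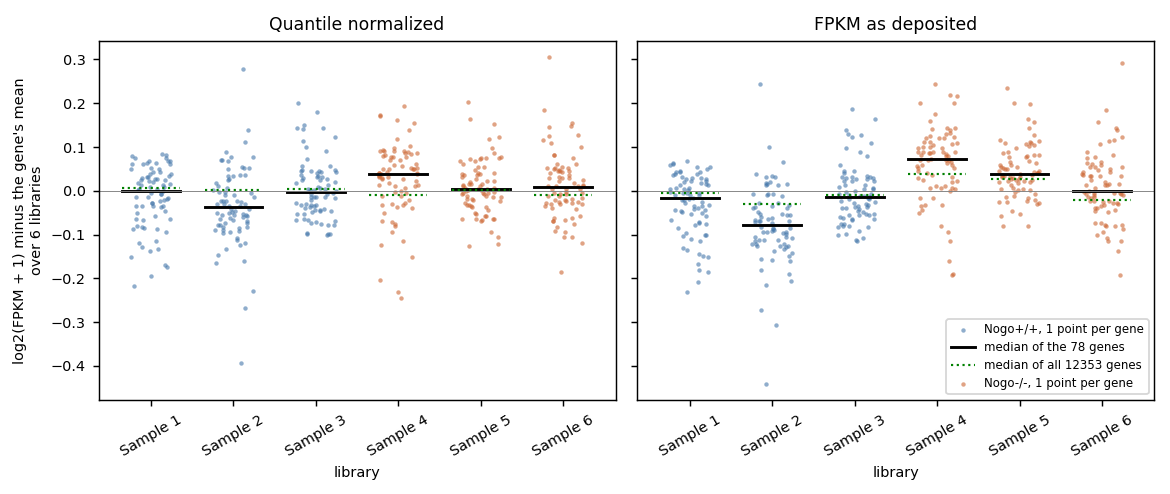
Deviation of each mitochondrial ribosomal protein gene from its own mean over the 6 libraries (log2(FPKM + 1)), after quantile normalization (left) and as deposited (right); each point is a gene, black bars are the median of the 78 genes and green dotted bars the median of all 12353 genes. The black bar is lowest in sample 2 (-0.038 left, -0.078 right) and highest in sample 4 (0.037 and 0.072).

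The genes that act with the mitochondrial ribosome were taken from lists of 107 measured genes, of which 3 passed an adjusted p of 0.05 (2.80%, against 4.64% of all genes). At an unadjusted p under 0.05 in limma there were 14 of the 107, against 20.5% of all genes. None of the 5 ribosomal proteins with other kinds of symbol passed (limma, 0 at an unadjusted p under 0.05; median -0.022), such as *Chchd1* (0.042) and *Ptcd3* (-0.079). None of 28 factors for assembly and rRNA modification passed (3 unadjusted; median -0.020). In this list *Mterf3* had 15.3 ± 0.304 FPKM in Nogo+/+ and 13.8 ± 0.450 FPKM in Nogo-/- (SD, n = 3; log2 fold change -0.178, limma adjusted p = 0.128), and for *Ngrn* the log2 fold change was -0.193 (adjusted p = 0.134). None of 16 translation factors passed (1 unadjusted; median -0.017), among them *Gfm2* (-0.132, adjusted p = 0.197) and *Mrrf* (-0.145, adjusted p = 0.286), both of which recycle the ribosome after termination.

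None of 22 genes for charging mitochondrial tRNAs passed (limma, 0 unadjusted; median -0.031), of which 19 were tRNA synthetases and 3, *Qrsl1*, *Gatb* and *Gatc*, were subunits of the glutamyl-tRNA amidotransferase. *Lars2*, for leucine, was the most variable, with 53.46, 106.1 and 43.57 FPKM in Nogo+/+ and 36.05, 57.66 and 24.86 FPKM in Nogo-/- (-0.780, SE 0.357, adjusted p = 0.266), and *Yars2*, for tyrosine, had -0.187 (adjusted p = 0.251). The groups of both overlapped. Of 11 genes for mitochondrial transcription and DNA none passed (limma, 3 unadjusted; median -0.008). *Polrmt*, the mitochondrial RNA polymerase, had 14.95, 12.39 and 13.52 FPKM in Nogo+/+ and 16.93, 18.13 and 18.33 FPKM in Nogo-/-, without overlap (0.320, SE 0.077, adjusted p = 0.0559). It passed without quantile normalization, with median-ratio scaling and with library weights. Without a trend it did not pass (limma adjusted p = 0.0919). With a library left out it passed in 0 of the 6 fits (adjusted p 0.0537 to 0.196). *Twnk*, the DNA helicase, had -0.247 (adjusted p = 0.118).

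The 3 genes that passed were 2 nuclear regulators and 1 mitochondrial transcript. *Myc*, a transcription factor that drives ribosome production, rose from 1.801, 2.258 and 2.088 FPKM in Nogo+/+ to 3.080, 3.782 and 3.115 FPKM in Nogo-/- (0.462, SE 0.105, limma adjusted p = 0.0458). It passed in 0 of the 6 fits with a library left out (adjusted p 0.0582 to 0.135) and did not pass without a trend (0.0556). *Esrrb*, an oestrogen-related receptor, fell from 3.105, 2.917 and 2.514 FPKM to 1.450, 1.815 and 1.781 FPKM (-0.559, SE 0.108, adjusted p = 0.0260), and passed in 2 of those 6. Both are low in this muscle, and the median of the 12 regulators was -0.066. Of these 12, 5 had an unadjusted p under 0.05 in limma, against 20.5% of all genes. *Myc* and *Pprc1* were higher in Nogo-/-, and *Esrrb*, *Yy1* and *Gabpb2* were lower. Of 13 mitochondrially encoded proteins, *mt-Nd6*, a complex I subunit, fell from 47.84, 57.72 and 56.41 FPKM to 45.50, 40.31 and 38.44 FPKM (-0.423, SE 0.085, adjusted p = 0.0315). It passed in 2 of those 6 fits, and not without quantile normalization (adjusted p = 0.0531) or without a trend (0.0734). *mt-Nd4* had -0.097 (limma adjusted p = 0.0845), with overlapping FPKM and a ratio of means of 0.985. Its value fell to -0.024 without quantile normalization (adjusted p = 0.802), and it passed with library weights (0.0471) and without sample 4 (-0.125, adjusted p = 0.00733). The summed level of the 13 was 21900 to 23200 FPKM in Nogo+/+ and 19800 to 22900 FPKM in Nogo-/-. In that sum *mt-Nd1*, *mt-Nd2*, *mt-Nd4*, *mt-Nd5*, *mt-Co1* and *mt-Cytb* averaged 1950 to 4850 FPKM each. The others averaged only 1.33 (*mt-Nd4l*) to 47.7 FPKM (*mt-Nd6*), so the sum says little about them. Why they were so low was not tested.

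Many mitochondrial ribosomal protein genes lie head to head with another gene. Of the 78, 18 (23.1%) had the start of a protein-coding gene on the other strand within 1000 bases upstream, against 10.3% of the 11545 protein-coding genes of the table. The distance had a median of 82 bases (26 to 935). Such pairs were *Mrps12* with *Sars2*, the mitochondrial seryl-tRNA synthetase, at 172 bases, *Mrpl32* with *Psma2*, a proteasome subunit, at 75 bases, and *Mrpl49* with *Fau*, which codes for a protein of the cytosolic ribosome, at 59 bases. Of the 16 partners in the table, 0 were called (limma), and 3 had an unadjusted p under 0.05 (18.8%, against 20.5% of all genes).

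The partner with the smallest p was *Pnpla7*, a lysophospholipase gene 935 bases from *Mrpl41*, which had 0.407 on the log2 scale (limma adjusted p = 0.0909) beside 0.155 for *Mrpl41*. Members with a partner had a median log2 fold change of 0.040 and those without 0.042. *Mrps11* and *Mrpl46*, a small and a large subunit gene, overlap at their starts by 413 bases on chromosome 7. Their levels were close, at 23.8 and 21.9 FPKM on average, with log2 fold changes of 0.038 and -0.006. The 78 genes lie on 17 chromosomes, with 11 on chromosome 11 and 8 on chromosome 17.

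Some values rest on reads that could belong to another gene. Another protein-coding gene overlaps 26 members, 23 of them on the opposite strand and 4 on the same strand. Libraries were made with a stranded kit, but whether the counting used strand is not given in the sources used here. The 4 with a gene on the same strand, where strand cannot tell reads apart, are *Mrps24*, *Mrpl53*, *Mrps34* and *Mrps6*. *Mrps25*, *Mrps30*, *Mrps18a*, *Mrpl33* and *Mrpl19* are among those with a gene on the opposite strand. Processed pseudogenes are named for *Mrpl23*, *Mrpl48* and *Mrps36*, 5 in all, of which 1 was in the table. For *Mrps28*, *Mrpl50* and *Mrpl34*, which have 1 annotated transcript each, the levels came from 782 to 934, 642 to 779 and 431 to 508 fragments a library, so counting error alone was 3.27% to 4.82%.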

How the data were processed

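The authors trimmed stranded mRNA reads with cutadapt 1.4.2 after CASAVA 1.8.2, aligned them with STAR 2.6.1 and obtained gene levels from Cufflinks 2.2.1 on GRCm38.p6, per the labels and the methods. They deposited FPKM per gene and library, in a table whose genes all reach an FPKM of 1 in at least 1 library. The 6 further columns of normalized log2 values were not used. The columns of the table are numbered 1 to 6 and carry no genotype, so their groups were taken from the heading of the same numbered columns in the study's own table of expression values. *Rtn4* was checked against these groups.

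Of 12353 gene IDs, 12347 matched GENCODE M21, and 11545 were protein-coding. FPKM were quantile normalized over all genes, a value of 1 was added and log2 taken. Groups were compared in limma 3.58.1 (R 4.3.3) with an intensity trend, unpaired, with Benjamini-Hochberg adjustment over all genes and a threshold of 0.05, all two-sided. A fold change on the log2(FPKM + 1) scale understates the change of low genes. Tests made for counts do not apply to FPKM and were left out. Depth was estimated from the steps of FPKM in genes with 1 transcript: 95.2% to 96.3% of low values lay within 0.1 of a whole fragment; errors given from fragments cover counting error only. With 3 libraries a group, an exact permutation test of a single gene cannot go below 0.1.

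Named were members called in limma, the 5 with the smallest p and the 3 highest and 3 lowest in FPKM per subunit, and *Mrpl10*, *Mrpl11*, *Mrpl12*, *Mrps12* and *Mrpl58*; in the other lists, genes called or else the 2 with the smallest p. Other genes in the text were named after their values were seen. The members, the lists of other genes and the motifs were chosen with earlier results of these data known. Alternatives left out quantile normalization, scaled by median ratios, added 0.1 in place of 1, kept only genes averaging 1 FPKM or more, dropped the trend, weighted the libraries, or left out each library in turn. Of the other marker lists, none of whose genes were called in limma, slow fibres (2 at an unadjusted p under 0.05) summed to 1340 to 1490 and 1300 to 1410 FPKM, Schwann cells (0) to 232 to 299 and 243 to 298 FPKM, and the 3 measured leukocyte markers (0) to 38.5 to 64.3 and 35.0 to 57.8 FPKM in Nogo+/+ and Nogo-/-. *Mb* was the only called fibre marker (-0.154, limma adjusted p = 0.00562). Its FPKM overlapped between the groups, with a ratio of means of 0.96. Numerical summaries used Python 3.11.15, pandas 2.3.3 and SciPy 1.17.1.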

Additional observations from a re-analysis of the deposited data

How the results depend on the processing

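No member was called in limma in any of the 12 alternatives, and the smallest adjusted p of a member lay between 0.0769 (library weights) and 0.252 (without sample 2). The 95% intervals of 73 to 76 members stayed inside a 1.3-fold change, and those of 77 or 78 inside 1.5-fold, but the number inside 1.2-fold ranged from 54 (no quantile normalization) to 69. At an unadjusted p under 0.05 there were 15 members without quantile normalization (19.2%, against 20.1% of all genes), 2 without a trend (2.56%, against 19.3%), 2 without sample 2 (2.56%, against 14.9%) and 3 without sample 3 (3.85%, against 16.1%). Without quantile normalization the small subunit median was 0.088, and the calls over all genes turned from 233 higher and 340 lower to 302 and 234. The median over all genes then shifted to 0.034, and the members' median stayed 0.030 to 0.056 above that of all genes in every setting. The direction turned in 15 members without quantile normalization, 7 with median-ratio scaling, 1 with library weights and 3 to 11 with a library left out, none of which had been further than 0.069 from 0. Among the named members, *Mrpl10* became 0.014 without quantile normalization and ranged from -0.054 to 0.014 (without sample 3) as libraries were left out, *Mrpl1* from -0.096 to 0.004 (without sample 3), *Mrps12* from -0.003 (without sample 4) to 0.090 and *Mrpl11* from -0.005 (without sample 6) to 0.078. Over all genes, leaving out a library left 188 (sample 2) to 434 (sample 5) calls, also 192 without sample 3, 301 without sample 1 and 378 without sample 4. Among the 107 other genes of mitochondrial gene expression, calls went from 3 to 1 without a trend and to 5 with library weights, and to between 0 (without sample 2 or 3) and 2 with a library left out, with 1 without sample 1 or 5; the cause was not tested. No paired analysis was possible because the columns carry no replicate number. FPKM give relative levels, so a change shared by all transcripts could not be seen.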
